A study of Mus musculus with 8 samples.

Results

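The genes of the mitochondrial ribosome were followed in sorted blood stem and progenitor cells of the mouse. They were taken by symbol: every gene called Mrpl or Mrps with a number and at most 1 further letter, read through probe sets that the platform annotation gives to 1 gene only. This gave 71 genes of 19958 measured, 45 named for the large subunit and 26 for the small subunit. The 3 groups were wild-type (Hmga2+/+) adult bone marrow from animals aged 8 to 12 weeks (n = 2), Hmga2-/- knockout (KO) fetal liver (n = 3) and Hmga2+/+ wild-type (WT) fetal liver (n = 3), both livers at E14.5, where E counts embryonic days. All cells were sorted for Sca1 and cKit and against lineage markers, which enriches stem cells and early progenitors, and no group carried a transgene or treatment in the labels. The labels call the samples of a group biological replicates but give no sex, strain, number of animals or sort date, and adult age and bone marrow cannot be told apart. The comparisons ask how adult cells differ from fetal ones and whether loss of Hmga2, an architectural chromatin protein, moves the same genes.

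The mitochondrial ribosome makes the few proteins that mitochondrial DNA encodes, which are core parts of the respiratory chain and of ATP synthase. Its RNAs come from mitochondrial DNA, but all of its proteins are encoded in the nucleus, made in the cytosol and imported. Some have counterparts in the bacterial ribosome and others are found only in mitochondria. Adult blood stem cells are known for their low cycling and their reliance on glycolysis, whereas fetal liver stem cells divide actively.

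Upstream of many such genes lie sites for the factors NRF1, YY1 and the ETS family member GABP, which are textbook regulators of nuclear genes for mitochondrial proteins. Promoter windows of 300 bases, 250 before the annotated start and 50 from it, were taken from RefSeq on GRCm38.p6 for 62 of the 71 genes, giving 68 windows. The short word CCGGAAG of the ETS family stood on either strand in 33.8% of these windows (23 of 68), against 11.6% of 21262 windows of protein-coding genes and 8.86% of all 32851 windows. The YY1 word AAGATGGC was found in 16.2% (11 windows), against 3.05% of protein-coding windows, and 7 of its 11 matches lay at or after the start. The NRF1 word GCATGCGC was found in 11.8% (8 windows), against 3.51%. The SP family word GGGCGG was found in 48.5% (33 windows), against 46.2% of protein-coding windows. The median GC content was 58.2% in these windows, against 56.3% in protein-coding windows. The ETS family word ends in the letters that open the YY1 word, so matches of these can share bases. A match is only a match of letters, and 51 of the 68 windows held at least 1 of the 4 words.

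Of the members below, 5 fell in adult cells against both fetal groups and Mrps18a against KO fetal liver only. Each sequence runs 5′ to 3′ on the gene's own strand, from 120 bases before the annotated start to 30 bases from it. Capitals mark a match to 1 of the 4 words or to its reverse complement. The window of Mrps9 (chr1:42851113-42851262, plus strand) held an SP family match, that of Mrps27 (chr13:99344666-99344815, plus strand) an ETS family match and, past the start, a YY1 match, and that of Mrpl51 (chr6:125192080-125192229, plus strand) an ETS and an SP family match. The window of Mrps18a (chr17:46110884-46111033, plus strand) likewise held an ETS family match before the start and a YY1 match past it. That of Mrpl46 (chr7:78783060-78783209, minus strand) held 1 SP family match, and that of Mrpl47 (chr3:32736726-32736875, minus strand) held none of these letters.
Mrps9: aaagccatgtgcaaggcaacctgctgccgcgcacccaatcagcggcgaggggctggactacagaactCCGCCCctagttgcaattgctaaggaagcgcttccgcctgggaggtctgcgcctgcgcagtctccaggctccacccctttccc
Mrps27: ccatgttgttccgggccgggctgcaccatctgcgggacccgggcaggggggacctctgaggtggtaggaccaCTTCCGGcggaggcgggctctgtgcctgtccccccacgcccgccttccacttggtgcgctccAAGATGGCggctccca
Mrpl51: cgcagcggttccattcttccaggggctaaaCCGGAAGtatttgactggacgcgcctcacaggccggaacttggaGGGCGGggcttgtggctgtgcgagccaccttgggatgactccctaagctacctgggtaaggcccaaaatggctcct
Mrps18a: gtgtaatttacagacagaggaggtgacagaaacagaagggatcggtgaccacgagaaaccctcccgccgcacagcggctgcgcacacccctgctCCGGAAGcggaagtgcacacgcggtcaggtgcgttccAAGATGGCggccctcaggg
Mrpl46: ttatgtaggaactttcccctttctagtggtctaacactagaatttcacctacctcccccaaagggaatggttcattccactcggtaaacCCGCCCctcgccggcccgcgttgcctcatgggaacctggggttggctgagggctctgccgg
Mrpl47: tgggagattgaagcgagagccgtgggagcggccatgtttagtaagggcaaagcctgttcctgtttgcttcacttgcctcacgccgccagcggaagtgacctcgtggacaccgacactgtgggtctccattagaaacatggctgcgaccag

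Genes of this family often lie head to head with another gene. Of the 68 windows, 25 (36.8%, from 23 members) overlapped the window of a gene on the other strand, against 2425 of 21262 windows of protein-coding genes (11.4%). The overlaps formed 22 pairs of genes, and 1 pair joined members of both subunits: Mrps11 and Mrpl46 start 42 bases apart on chromosome 7.

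The sort markers were read first. Of 9 measured genes of the sort gate, 8 had a mean above the background in all groups. Background was set at 5.97 on the log2 scale, the 95th percentile of 962 olfactory receptor genes. The gene of the sort marker Sca1, Ly6a, read 8.99 and 8.44 in adult cells, 5.59, 6.34 and 7.25 in KO fetal cells and 7.39, 6.64 and 6.65 in WT fetal cells, so 1 KO array lay below the background. Hmga2 itself read 5.89, 5.88 and 6.08 in KO fetal cells, against 9.24, 9.01 and 8.83 in WT fetal cells. The summed intensity of these 9 genes was 5240 to 5500 in adult cells, 3940 to 4100 in KO and 3970 to 4200 in WT fetal cells.

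Markers of other cells also differed between groups. The summed intensity of 6 megakaryocyte genes was 771 to 786 in adult cells, 381 to 540 in KO and 376 to 417 in WT fetal cells. That of 6 endothelial genes was 534 to 610 in adult cells, 656 to 839 in KO and 748 to 820 in WT fetal cells. Over 7 granulocyte genes it was 1580 to 2140 in adult cells, 2050 to 2400 in KO and 2190 to 2770 in WT fetal cells. The megakaryocyte and sort gate sums were higher in adult cells and the endothelial sum lower, with no overlap with either fetal group, while the granulocyte sums of adult and KO cells overlapped. Of 8 measured hepatocyte genes, Alb, Afp, Ttr, Fgb and Ahsg were below background in every group mean and Apoa1 and Trf above it in all groups. Apoa2 averaged 5.39 in adult cells, 6.51 in KO and 6.32 in WT fetal cells. The hepatocyte sum was 478 to 522 in adult cells, 477 to 550 in KO and 442 to 791 in WT fetal cells. WT array 3 read 6.65 for Alb, 6.5 for Afp and 7.86 for Apoa2, above the background. All 4 measured T lymphoid genes were below background in every group mean. The sum of 6 erythroid genes was 341 to 359 in adult cells, at most 337 in KO and at most 329 in WT fetal cells. The sums of 8 macrophage genes (534 to 573 in adult cells, 524 to 605 in KO and 506 to 540 in WT) and of 6 B lymphoid genes (346 to 379 in adult cells, 403 to 698 in KO and 346 to 545 in WT) overlapped between adult and WT cells. The part of these cells in the results below was not tested.

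In adult marrow cells the mitochondrial ribosomal protein genes were lower than in WT fetal liver cells, as a family and in both subunits. The difference was below 0 for 67 of the 71 genes, with a median log2 fold change of -0.57, or 1.49-fold lower. For all 19958 genes the median was 0.06 with 43.3% below 0, and for the 9622 genes above background it was -0.15 with 62.5% below 0. Of the 68 members above background, 95.6% were below 0. Of the large subunit genes 43 of 45 were lower (median -0.60), as were 24 of 26 small subunit genes (median -0.54). Passing the test at an adjusted p under 0.05 were 10 members, 8 of the large and 2 of the small subunit. All 10 fell, against 2.36% of all genes called lower, and none was called higher, against 0.832% of all genes. At an unadjusted p under 0.05 limma gave 32 members lower and 0 higher, and over all 19958 genes 2258 lower and 1455 higher. Every adult array lay below every WT array in 34 members, against 15.7% of all genes. No member had both adult arrays above, against 4007 of the 19958 genes. With RNA from sorted populations, fewer cells of a kind and less RNA per cell cannot be told apart.

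Probe set medians left 1 of the 10 calls, Mrpl35, and a fit on the adult and WT arrays alone left 2, Mrpl20 and Mrps9. Leaving out 1 array at a time left 4 to 11 members called, with 4 without WT array 3 and 6 each without WT array 1 or WT array 2. Mrpl20, Mrpl47 and Mrps9 passed in all 8 of these leave-one-out fits.

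**Figure D1:**
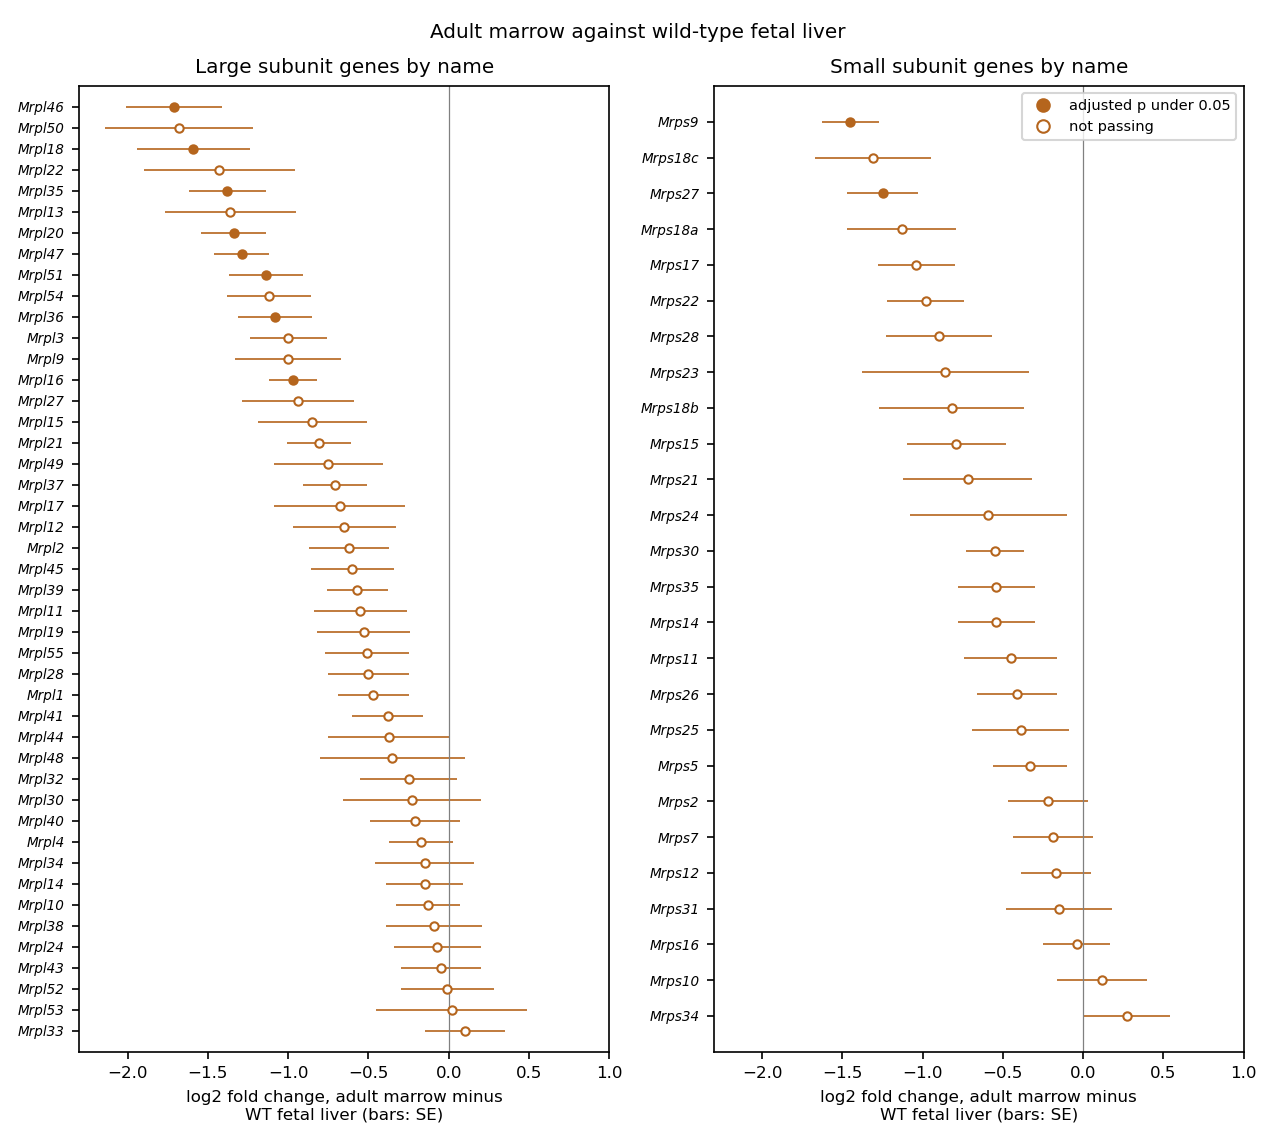
Log2 fold change of each of the 71 genes, adult marrow minus WT fetal liver, with its standard error. Filled points mark the 10 members at an adjusted p under 0.05, and 67 of 71 points lie left of 0.

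Among large subunit genes, Mrpl46, a protein with no bacterial counterpart that sits at the central protuberance, had the lowest fold change. It read 6.47 and 7.36 in adult cells, 8.28, 8.74 and 8.20 in KO fetal cells and 8.78, 8.24 and 8.85 in WT fetal cells (log2 intensity). Both adult arrays were below all 6 fetal arrays, and the fetal groups overlapped. The log2 fold change was -1.71 against WT (SE 0.30, adjusted p = 0.0218) and -1.49 against KO (SE 0.30, adjusted p = 0.0221). Without adult array 1 these were -1.26 and -1.04, and neither passed. Its head-to-head neighbour Mrps11, a small subunit protein with a bacterial counterpart, read 6.64 and 6.57 in adult cells, 7.31, 8.30 and 7.29 in KO fetal cells and 6.86, 7.14 and 7.16 in WT fetal cells. Its adult values were also below all fetal arrays, but the fold change against WT was -0.45 (SE 0.29, adjusted p = 0.45), and neither comparison with adult cells passed.

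Mrpl18, whose human protein is known to take part in bringing 5S ribosomal RNA into mitochondria, read 8.52 and 7.16 in adult cells, 9.12, 9.51 and 9.23 in KO and 9.37, 9.21 and 9.68 in WT fetal cells. The adult arrays were lower than all fetal ones but stood far apart from each other. It fell 3.00-fold against WT (log2 fold change -1.59, SE 0.35, adjusted p = 0.043). Its call was held in 1 of the 8 leave-one-out fits, and without adult array 2 the log2 fold change was -0.91.

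Mrpl35, the counterpart of a bacterial large subunit protein, read 6.24 and 6.37 in adult cells, 7.56, 7.53 and 7.62 in KO and 7.96, 7.17 and 7.93 in WT fetal cells. Both adult arrays were close together and below the rest. It fell 2.61-fold against WT (log2 fold change -1.38, SE 0.24, adjusted p = 0.0204) and 2.40-fold against KO (log2 fold change -1.26, SE 0.24, adjusted p = 0.0183).

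Mrpl20 and Mrpl47 were at background in adult cells. Mrpl20, a bacterial-type protein of the large subunit, read 5.16 and 5.13 in adult cells, 6.90, 6.58 and 6.34 in KO and 6.61, 6.30 and 6.55 in WT fetal cells. All fetal arrays were above the background and both adult arrays below it, so the fall is given as at least 1.43-fold against WT (adjusted p = 0.0128) and at least 1.55-fold against KO (adjusted p = 0.00656). Mrpl47, which lies near the polypeptide exit of the large subunit, read 5.09 and 5.34 in adult cells, 7.04, 7.08 and 7.08 in KO and 6.42, 6.35 and 6.73 in WT fetal cells. The 3 groups did not overlap, with KO arrays the highest. It fell at least 1.44-fold against WT (adjusted p = 0.00909) and at least 2.13-fold against KO (adjusted p = 0.00201), and 12 of its 13 probe sets were lower in adult than in WT cells.

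The other large subunit genes called were Mrpl51, Mrpl36 and Mrpl16. Mrpl51, which has no bacterial counterpart, read 7.19 and 7.64 in adult cells, 8.49, 8.04 and 8.52 in KO and 8.26, 8.60 and 8.78 in WT fetal cells. It fell by 1.14 on the log2 scale against WT (log2 fold change -1.14, SE 0.23, adjusted p = 0.0366). This call was lost with probe set medians, in the fit on the groups compared, and without WT array 2 or WT array 3. Mrpl16, a bacterial-type protein, read 7.41 and 7.61 in adult cells, 8.09, 8.01 and 8.19 in KO and 8.49, 8.41 and 8.53 in WT fetal cells. Its groups formed 3 separate steps, with KO between the others. The fall was 1.95-fold against WT (log2 fold change -0.97, SE 0.15, adjusted p = 0.0152) and 1.5-fold against KO (log2 fold change -0.58, SE 0.15, adjusted p = 0.0478). Its call against KO was held in 1 of the 8 leave-one-out fits and in 3 of 18 alternatives, with log2 fold changes from -0.68 to -0.08 and an adjusted p of up to 0.882 in limma. Mrpl36, another bacterial-type protein, averaged 5.24 ± 0.51 (SD, n = 2) in adult cells, below the background, against 6.44 ± 0.04 in KO and 6.32 ± 0.26 in WT fetal cells (SD, n = 3 each). It fell at least 1.28-fold against WT (adjusted p = 0.0423), and this call was held in 1 of the 8 leave-one-out fits.

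In the small subunit, Mrps9 and Mrps27 passed against both fetal groups. Mrps9, with a bacterial counterpart, read 7.0 and 7.07 in adult cells, 8.52, 8.42 and 8.17 in KO and 8.70, 8.41 and 8.34 in WT fetal cells. The gap between adult and fetal arrays was wider than the range within any group. It fell 2.74-fold against WT (log2 fold change -1.45, SE 0.18, adjusted p = 0.00621) and 2.53-fold against KO (log2 fold change -1.34, SE 0.18, adjusted p = 0.00656), and all 12 of its probe sets were lower in adult cells in both comparisons. Mrps27, a pentatricopeptide repeat protein found in mitochondria but not in bacteria, read 4.93 and 4.93 in adult cells, 6.34, 5.85 and 6.03 in KO and 5.84, 6.21 and 6.49 in WT fetal cells. Its adult arrays were at background and its fetal arrays ran from just below to just above it, so the fall is given as at least 1.16-fold against WT (adjusted p = 0.0234) and at least 1.07-fold against KO (adjusted p = 0.0204). Both calls were lost with probe set medians. The call against WT was also lost in the fit on the groups compared and without WT array 2 or WT array 3.

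**Figure D2:**
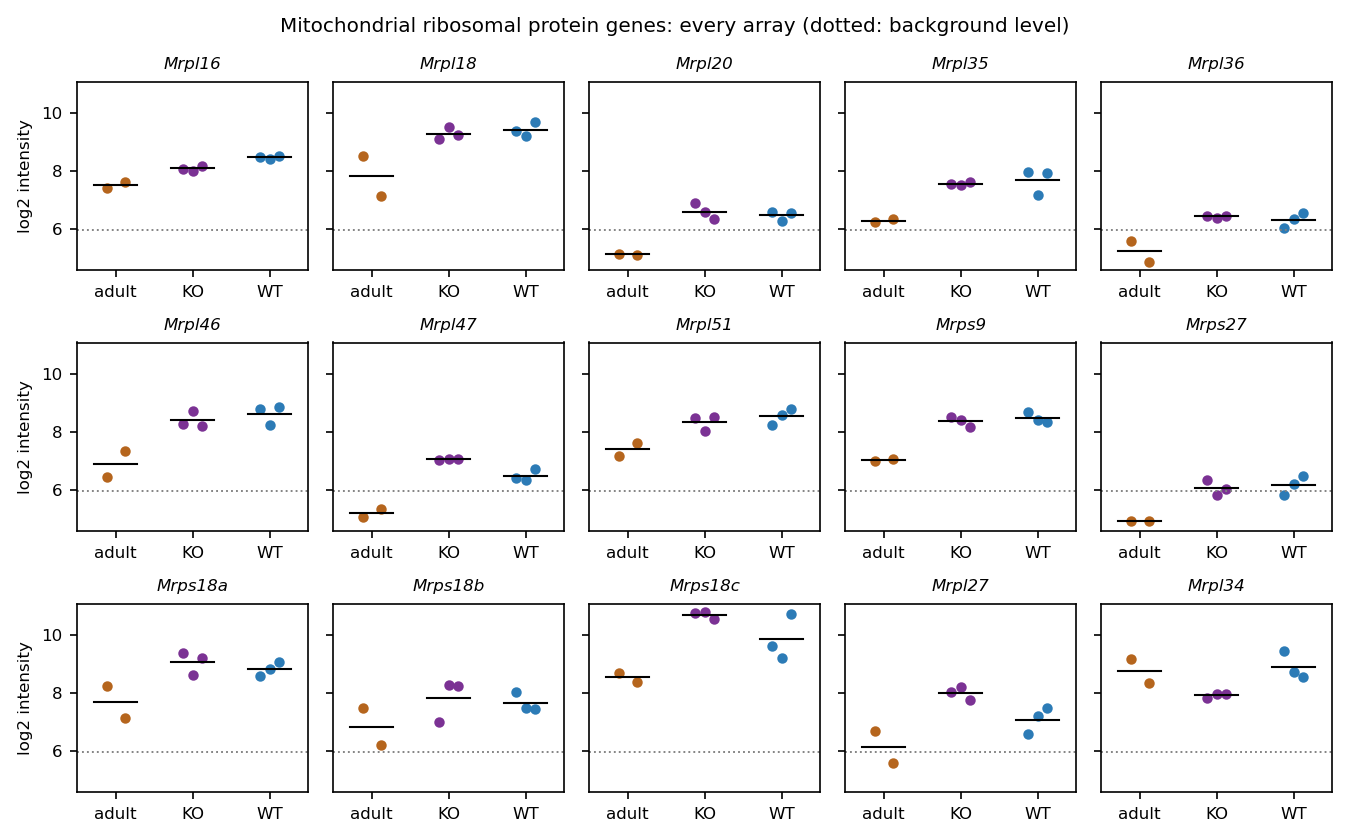
Log2 intensity of 15 genes on every array, with the group mean as a bar and the background level of 5.97 dotted. Shown are the 10 members called in adult cells against both fetal groups, the 3 Mrps18 paralogs, and Mrpl27 and Mrpl34, which had the highest and the lowest KO minus WT fold change.

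Against KO fetal liver more members passed. The median log2 fold change of adult minus KO was -0.66 over the 71 genes, against 0.07 over all genes and -0.20 over genes above background. Below 0 were 66 members, against 43.6% of all genes. Among genes above background 64.4% were below 0, and among the 68 members above background 92.6%. The median was -0.58 in the large and -0.73 in the small subunit. Called lower were 21 members, 14 large and 7 small, against 5.80% of all genes, and none was called higher, against 3.11% of all genes. At an unadjusted p under 0.05 limma gave 35 members lower and 1 higher, and over all 19958 genes 2930 lower and 2939 higher. Both adult arrays were below all KO arrays in 41 members, against 20.6% of all genes. They were above them in 3 members, against 5901 of the 19958 genes. The 10 members that fell against WT all fell here too. The 2 comparisons share the adult arrays, and the 11 further calls were not tested for a difference between them. Leaving out KO array 1 or KO array 2 left 6 calls, leaving out KO array 3 left 9 and leaving out adult array 2 left 13, and probe set medians left 10, of which Mrps11 was not among the 21.

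The 11 members called against KO only were Mrpl1, Mrpl15, Mrpl21, Mrpl27, Mrpl50, Mrpl54, Mrps17, Mrps18a, Mrps18c, Mrps22 and Mrps30. Mrpl27, whose bacterial counterpart reaches toward the peptidyl transferase centre, read 6.71 and 5.59 in adult cells, 8.04, 8.21 and 7.78 in KO and 6.58, 7.22 and 7.48 in WT fetal cells. KO arrays were the highest, and adult and WT arrays overlapped. It fell 3.62-fold against KO (log2 fold change -1.86, SE 0.35, adjusted p = 0.0183). Without adult array 2 its log2 fold change was -1.30 and did not pass.

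Mrpl15, a bacterial-type protein, read 6.53 and 7.50 in adult cells, 8.60, 8.68 and 8.58 in KO and 7.40, 7.73 and 8.47 in WT fetal cells. The KO arrays were tight and above all others. It fell 3.05-fold against KO (log2 fold change -1.61, SE 0.34, adjusted p = 0.0256). Without adult array 1 its log2 fold change was -1.12 and did not pass. Mrpl50, found only in mitochondria, averaged 7.45 ± 1.34 (SD, n = 2) in adult cells, the widest adult spread of these, against 9.23 ± 0.30 in KO and 9.13 ± 0.34 in WT fetal cells (SD, n = 3 each). The log2 fold changes were -1.78 against KO (SE 0.46, adjusted p = 0.0457) and -1.68 against WT (SE 0.46, adjusted p = 0.0906), and the call against KO was held in 1 of 8 leave-one-out fits, with a log2 fold change of -0.84 without adult array 2.

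Mrps22, a small subunit protein with no bacterial counterpart, averaged 7.74 ± 0.10 (SD, n = 2) in adult cells, against 9.07 ± 0.12 in KO and 8.72 ± 0.43 in WT fetal cells (SD, n = 3 each). Both adult arrays were below all fetal arrays, and it fell 2.51-fold against KO (log2 fold change -1.33, SE 0.24, adjusted p = 0.0157). Mrps17, a bacterial-type protein of the small subunit, had log2 fold changes of -1.0 against KO (adjusted p = 0.0365) and -1.04 against WT (adjusted p = 0.0538). The remaining ones called against KO only, Mrpl1, Mrpl21 and Mrps30, had log2 fold changes against KO of -1.12, -1.02 and -0.79, and Mrpl54, below the background in adult cells, fell at least 1.27-fold.

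Mammals have 3 paralogs of the bacterial small subunit protein S18. Mrps18c and Mrps18b sit in the small subunit, while Mrps18a, like Mrps30, is placed in the large subunit in mammalian structures. Mrps18c read 8.69 and 8.38 in adult cells, 10.75, 10.79 and 10.56 in KO and 9.62, 9.22 and 10.71 in WT fetal cells. Adult arrays were the lowest, and WT array 3 lay among the KO arrays. It fell 4.48-fold against KO (log2 fold change -2.16, SE 0.36, adjusted p = 0.0129) and its fold change against WT was -1.31 (SE 0.36, adjusted p = 0.0922).

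Mrps18a read 8.25 and 7.15 in adult cells, 9.37, 8.61 and 9.22 in KO and 8.59, 8.83 and 9.07 in WT fetal cells. It fell 2.58-fold against KO (log2 fold change -1.37, SE 0.34, adjusted p = 0.039). This call was held in 3 of the 8 leave-one-out fits, and without adult array 2 the log2 fold change was -0.82 and did not pass. Mrps18b read 7.49 and 6.22 in adult cells, 7.01, 8.28 and 8.24 in KO and 8.04, 7.50 and 7.47 in WT fetal cells. Its groups overlapped, and it passed against neither KO (adjusted p = 0.179) nor WT (adjusted p = 0.372). With Mrps18a and Mrps30 counted in the large subunit, the adult minus WT medians were -0.60 and -0.54.

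Few members were higher in adult cells. Against WT the fold changes above 0 were those of Mrps34 (0.27), Mrps10 (0.12), Mrpl33 (0.10) and Mrpl53 (0.02), none of which passed. Mrps34, a mitochondria-specific small subunit protein, read 6.82 and 7.07 in adult cells, 6.79, 6.75 and 6.45 in KO and 7.23, 6.49 and 6.31 in WT fetal cells. Mrpl53 had 1 probe set and was below the background in every group mean, as was Mrpl38. Mrpl39, the member with the highest mean intensity of its subunit over the 8 arrays, read 9.77 and 9.5 in adult cells, 10.04, 10.08 and 10.12 in KO and 10.08, 10.51 and 10.03 in WT fetal cells. Its adult arrays were below all fetal ones here too. The adult minus WT fold change was -0.57 (SE 0.19, adjusted p = 0.145). In the small subunit Mrps21 had the highest mean intensity. It read 10.12 and 8.59 in adult cells, 10.24, 9.73 and 10.10 in KO and 10.31, 9.68 and 10.22 in WT fetal cells. Its adult arrays overlapped those of both fetal groups, with an adult minus WT fold change of -0.72 (SE 0.40, adjusted p = 0.371). Intensities of different genes come from different probes and give no order of abundance.

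Both adult arrays lay below all 6 fetal arrays in 30 members (42.3%), 20 large and 10 small, against 2380 of all genes (11.9%). The shift was not equal on the adult arrays. Relative to the WT mean, the median of the members was -0.36 on adult array 1, with 52 of 71 below 0, and -0.73 on adult array 2, with 66 of 71 below 0. The median of the 9622 genes above background was -0.14 on both adult arrays, with 5771 below 0 on array 1 and 5878 on array 2. On the KO arrays the median of the members was 0.12, 0.08 and 0.03, and on the WT arrays -0.05, -0.13 and 0.19. Adult array 2 was below adult array 1 in 49 members, with a median difference of -0.45, whereas over genes above background the median difference was 0.00 and 49.6% were lower. In the fit without adult array 2, 52 members were below 0 and 9 were called against WT, and without adult array 1 these counts were 66 and 11.

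**Figure D3:**
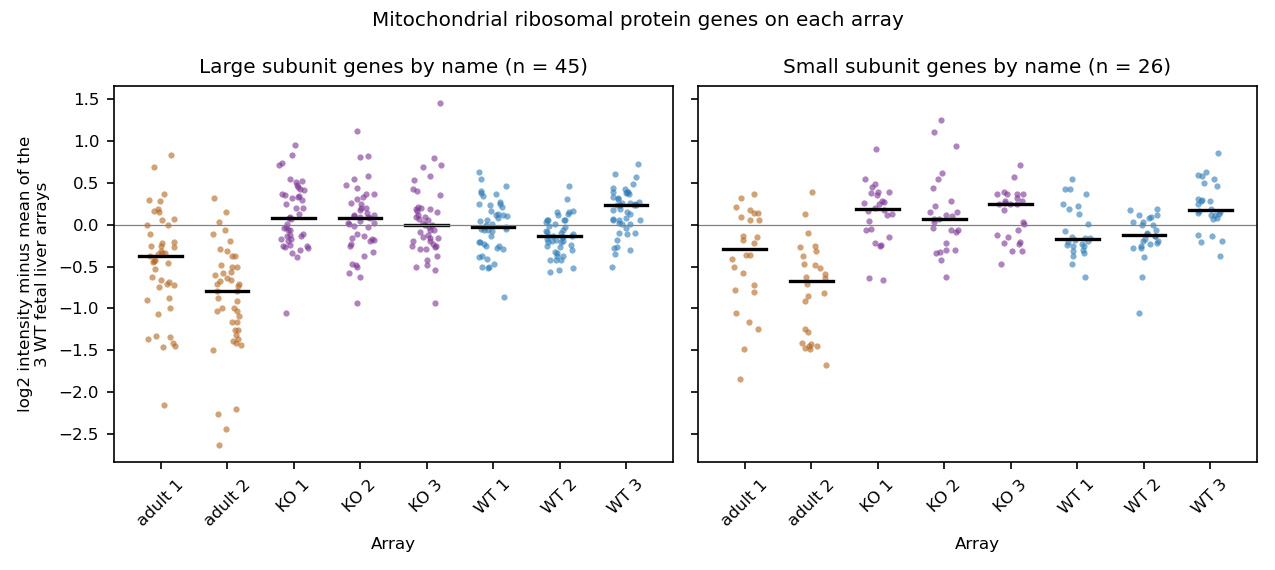
Log2 intensity of each member minus its mean over the 3 WT fetal liver arrays, by array, for 45 large and 26 small subunit genes, with the median as a bar. Adult array 2 has the lowest medians (-0.79 large, -0.68 small), adult array 1 the next lowest (-0.38 and -0.29), and the KO and WT arrays lie around 0.

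At the level of single probe sets the shares were close in both subunits in the comparisons with adult cells. Lower in adult than in WT cells were 208 of 260 probe sets of the large subunit (80.0%) and 123 of 156 of the small subunit (78.8%). Against KO these were 203 (78.1%) and 124 (79.5%). Lower in KO than in WT cells were 123 of the large subunit (47.3%) and 60 of the small subunit (38.5%).

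In KO against WT fetal cells no member passed. On simulated data with 50 genes changed at each size, the fit recovered 4% of 1.5-fold and 64% of 2-fold changes in this comparison. With fewer genes changed than simulated the adjustment of p is stricter, so these shares can be too high for the measured arrays. Changes of about 2-fold and below can therefore be missed. Called over all genes were 2 (0.01%). At an unadjusted p under 0.05 limma gave 5 members higher and 2 lower, and over all 19958 genes 709 higher and 814 lower. The median log2 fold change was 0.07 over the members (large 0.06, small 0.15), against -0.02 over all genes and 0.04 over those above background. Above 0 were 42 members. The share below 0 was 40.8% of the members, against 53.2% of all genes and 44.1% of those above background. All KO arrays were above all WT arrays in 7 members, against 5.94% of all genes, and below them in 3, against 7.86%.

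The lowest fold change was that of Mrpl34, a small bacterial-type protein of the large subunit. It read 7.85, 7.98 and 7.98 in KO and 9.45, 8.74 and 8.56 in WT fetal cells, with 9.19 and 8.34 in adult cells. The KO arrays were below all others (KO minus WT -0.98, SE 0.27, adjusted p = 0.581). Against KO, Mrpl34 was also the member furthest above 0 in adult cells (log2 fold change 0.83, adjusted p = 0.114). It has 2 probe sets, both lower in KO than in WT cells. Mrpl16 had a KO minus WT fold change of -0.38 (SE 0.14, adjusted p = 0.632) and Mrps5, a bacterial-type protein of the small subunit, one of -0.39 (SE 0.21, adjusted p = 0.671). Mrps14 had the lowest of the small subunit, -0.45 (SE 0.21, adjusted p = 0.651), with overlapping arrays. Mrpl37 and Mrps9 had fold changes of -0.19 (adjusted p = 0.79) and -0.12 (adjusted p = 0.861).

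On the upper side the fold changes were 0.91 for Mrpl27 (SE 0.31, adjusted p = 0.632), 0.85 for Mrps18c (SE 0.33, adjusted p = 0.632), 0.76 for Mrpl15 (SE 0.31, adjusted p = 0.632), 0.65 for Mrpl1 (SE 0.20, adjusted p = 0.631) and 0.56 for Mrpl47 (SE 0.16, adjusted p = 0.577). In Mrpl27, Mrpl15, Mrpl1 and Mrpl47 the KO and WT arrays did not overlap, while in Mrps18c they did. In the small subunit, Mrps11 (0.58) and Mrps7 (0.40) had every KO array above every WT array. So did Mrpl53 of the large subunit (0.81), but it has 1 probe set and its KO and WT means lay below the background.

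**Figure D4:**
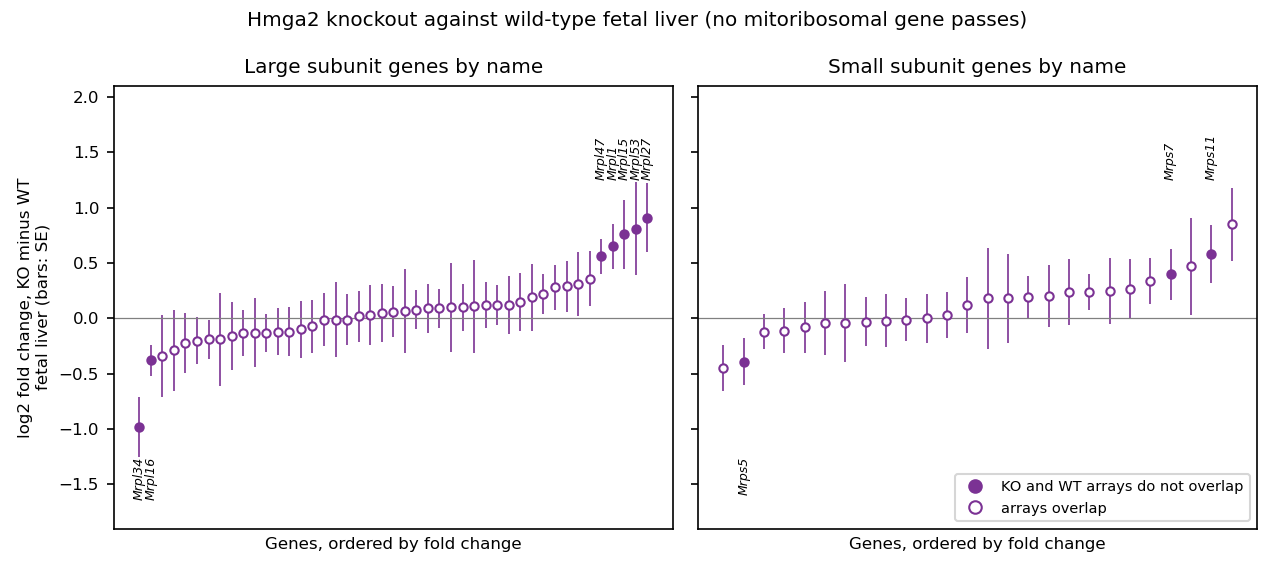
Log2 fold change of each member, KO minus WT fetal liver, with its standard error, ordered within each subunit. Named and filled are the members whose KO and WT arrays do not overlap, 7 above 0 and 3 below 0, and none of the 71 passed the test.

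The wider pathway was described with lists of related genes. Ribosomal proteins of mitochondria with other symbols were listed under 9 symbols, which include older names of genes also listed by their current name. They gave 6 measured genes. All 6 were lower in adult cells than in either fetal group, with medians of -0.76 against WT and -1.01 against KO. Ptcd3, a pentatricopeptide repeat protein of the small subunit, read 6.28 and 6.77 in adult cells, 7.91, 7.77 and 8.07 in KO and 7.22, 7.66 and 7.72 in WT fetal cells (adult minus WT -1.0, SE 0.22, adjusted p = 0.0424). Chchd1, also of the small subunit, fell by 0.76 against WT (log2 fold change -0.76, SE 0.16, adjusted p = 0.0402). Against KO both were called again, with Gadd45gip1 (-1.34, adjusted p = 0.0303) and Mrpl57 (-0.92, adjusted p = 0.0256). Mrpl42 carries an older symbol on the platform and is not among the 71. It had an adult minus WT fold change of -0.29 (SE 0.16, adjusted p = 0.375).

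Of 25 genes for assembly of the mitochondrial ribosome and modification of its RNA, none passed against WT in limma (8 lower and 0 higher at an unadjusted p under 0.05, median -0.33) and 5 fell against KO (median -0.43). These were Fastkd2, an RNA-binding protein of mitochondrial RNA granules (log2 fold change -1.53), Rbfa, a small subunit assembly factor (-0.92), C1qbp, a matrix protein (-0.79), the RNA helicase gene Ddx28 and the pseudouridine synthase gene Trub2. Ddx28 and Trub2 were below the background in adult cells, so their falls against KO are at least 1.66-fold and at least 1.45-fold.

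Of 13 translation factors, 2 fell against WT and 3 against KO (medians -0.26 and -0.61). Gfm1, an elongation factor, read 6.92 and 6.98 in adult cells, 9.06, 8.66 and 8.27 in KO and 7.90, 8.16 and 8.58 in WT fetal cells. Both adult values were below all fetal ones (adult minus WT -1.26, SE 0.26, adjusted p = 0.0373). Lrpprc, which stabilises mitochondrial messenger RNAs, fell by 0.88 against WT (log2 fold change -0.88, SE 0.18, adjusted p = 0.0356) and by 1.16 against KO (log2 fold change -1.16, SE 0.18, adjusted p = 0.00929). Mtif2, an initiation factor, fell against KO (log2 fold change -0.91, adjusted p = 0.0488). Of 19 genes that charge mitochondrial transfer RNAs, limma called 0 in any of the 3 comparisons (unadjusted p under 0.05: 2 lower against WT, 4 lower and 1 higher against KO, and 1 each way between KO and WT), and their median was -0.23 against WT and -0.17 against KO.

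Of 12 genes for transcription of mitochondrial DNA and its upstream regulators, Tfam, the packaging and transcription factor of mitochondrial DNA, fell against both WT (log2 fold change -0.94, SE 0.21, adjusted p = 0.0462) and KO (log2 fold change -1.42, SE 0.21, adjusted p = 0.00794). Against KO also Nrf1 (-0.84, adjusted p = 0.0183), the coactivator gene Pprc1 (-0.99, adjusted p = 0.0259) and Yy1 (-0.61, adjusted p = 0.0493) fell. The list median was -0.12 against WT, with 5 of 12 genes above 0, and -0.41 against KO, with 4 above 0. Gabpa, a gene of GABP, had fold changes of 0.05 against WT and -0.27 against KO and was not called. Nrf1 read 6.45 and 6.40 in adult cells, 7.21, 7.26 and 7.31 in KO and 6.71, 6.55 and 6.86 in WT fetal cells. The 3 groups did not overlap, but KO minus WT did not pass (0.56, SE 0.14, adjusted p = 0.577).

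The nuclear genes of oxidative phosphorylation, whose products join those made by the mitochondrial ribosome, had medians close to those of the members. The median was -0.61 over 64 genes against WT, with 8 called lower and 62 below 0, and -0.65 against KO, with 18 called lower. Sdhb, the iron-sulfur subunit of succinate dehydrogenase, read 7.66 and 7.45 in adult cells, 9.12, 8.74 and 8.58 in KO and 8.83, 8.56 and 8.79 in WT fetal cells (adult minus WT -1.17, SE 0.20, adjusted p = 0.0196). Uqcrc1, a core subunit of complex III, had an adult minus WT fold change of -1.11 (SE 0.19, adjusted p = 0.019). Each complex encoded in part by mitochondrial DNA had a gene called lower against WT. These were Ndufv2, Ndufs4 and Ndufb5 of complex I, Uqcrc1 of complex III, Cox7a2 of complex IV, and Atp5c1 and Atp5k of ATP synthase. Their log2 fold changes against WT ran from -1.21 (Cox7a2) to -0.82 (Atp5c1).

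Cytosolic ribosomal protein genes had medians near 0, at -0.08 against WT and -0.10 against KO over 31 genes. Rpl30 (-1.01 and -1.11) and Rpl34 (-0.82 and -0.78) fell against WT and KO, and Rplp1 rose against KO (log2 fold change 0.93). Genes of the G2 and M phases had the lowest medians of these lists, -1.03 against WT (12 of 23 called lower) and -1.35 against KO (15 called lower). For example, Ccna2, a cyclin, read 7.46 and 7.87 in adult cells, 9.64, 9.38 and 9.36 in KO and 9.12, 9.48 and 9.55 in WT fetal cells. By array the order differed. Relative to the WT mean, the G2 and M median was -1.19 on adult array 1 and -0.82 on adult array 2, while the oxidative phosphorylation median was -0.42 and -0.74, like that of the members. The part of cell cycling in the fall of the members was not tested. No gene of any of these lists was called in KO against WT. At an unadjusted p under 0.05 limma gave, over the 8 lists, 6 genes higher and 4 lower in KO cells.

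**Figure D5:**
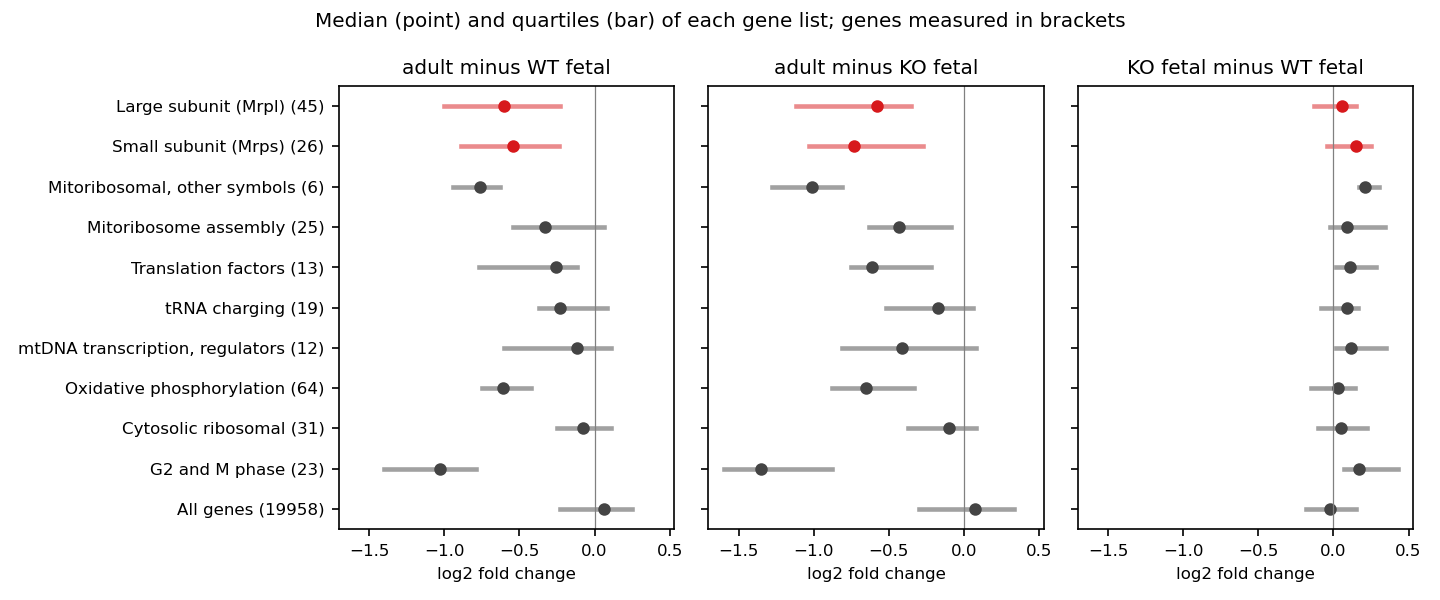
Median (point) and quartiles (bar) of the log2 fold change in each gene list, with the mitochondrial ribosomal protein genes in red, for adult minus WT, adult minus KO and KO minus WT. The medians of both subunits (-0.60 and -0.54 against WT) lie beside that of oxidative phosphorylation (-0.61), between cytosolic ribosomal (-0.08) and G2 and M phase genes (-1.03).

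The promoter features were set beside the changes. Among windows of members called in adult cells against either fetal group, 42.1% (8 of 19) held the ETS family word, against 30.6% (15 of 49) for the other members. The NRF1 word was found in 0 of 19 windows of called members and in 8 of 49 of the others (16.3%), and the YY1 word in 21.1% (4) and 14.3% (7). The SP family word was found in 42.1% (8) of the windows of called members and in 51.0% (25) of those of the others. Mrpl2, Mrpl48 and Mrps16, all among the others, have several windows each, and every window was counted. These are counts of letters in small groups, with no test.

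The head-to-head neighbours were read in the same fit. Of 20 measured neighbours that are not members, 2 fell in adult cells against WT, with a median of -0.28 and 17 below 0, and 3 against KO, with a median of -0.22. Ndufb5, a complex I subunit, starts 308 bases from Mrpl47 and fell with it, by 0.98 against WT (log2 fold change -0.98, SE 0.19, adjusted p = 0.0312). Tcp1, a subunit of the cytosolic chaperonin, starts 238 bases from Mrpl18 and fell with it (log2 fold change -1.03, SE 0.16, adjusted p = 0.0134). Mrps27 and its neighbour Ptcd2, a mitochondrial RNA-binding protein, start 108 bases apart. Mrps27 fell while Ptcd2 had a fold change of -0.10 against WT (adjusted p = 0.869). Mrps18c and Helq, a DNA helicase, had fold changes against KO of -2.16 and -0.22. In the reverse case, Mitd1 fell against KO (log2 fold change -2.07, adjusted p = 0.0151) while Mrpl30, 66 bases away, had a fold change of -0.30 (adjusted p = 0.671).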

How the data were processed

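Per the labels' protocols, RNA of sorted cells was isolated on RNeasy columns, about 50 ng was amplified with the Ovation Pico system, and the product was labelled with biotin for Affymetrix Mouse Gene 1.0 ST arrays. The 8 arrays form 3 groups. The deposited values are intensities on a linear scale, and the submitters' processing notes name RMA, with no version given in the sources used here. The median log2 intensity of an array lay between 6.20 and 6.27 over 225993 probe sets, and no further normalization was applied. Genes were read only through the 208881 probe sets with a single symbol in the platform annotation, leaving out 1668 with more than 1 symbol and 15444 without any. RefSeq synonyms replaced 2585 old symbols, and 118 had no current form. Log2 values of a gene's probe sets were averaged, which can hide changes of part of a transcript. The 71 members had 416 probe sets, with a median of 5 and a range of 1 to 15.

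All 8 arrays entered 1 fit in limma 3.58.1 (lmFit and eBayes, R 4.3.3) with 1 coefficient per group. Two-sided p-values had a Benjamini-Hochberg adjustment across the 19958 genes, with calls at an adjusted p under 0.05. The p-values set each difference between groups against a spread estimated over all 3 groups and moderated across genes. The number of arrays limits the precision. In some members the 2 adult arrays stood further apart than fetal ones, as in Mrpl50 (SD 1.34, against 0.30 in KO and 0.34 in WT), which a shared spread does not show. Where the dimmer group's mean was below the 95th percentile of olfactory receptor genes, the change is given as at least N-fold, computed from that percentile. The fit was tested on simulated data with 50 genes changed at each size. Over the 3 comparisons it recovered 2% to 4% of 1.5-fold, 40% to 64% of 2-fold and 88% to 92% of 3-fold changes. These shares depend on the number of genes changed and can be too high for KO against WT, where few genes were called. Python 3.11.15 prepared the tables.

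The members and lists were chosen with earlier results of these data known. Named with values are, per comparison and subunit, the 5 largest called changes, up to 3 others by smallest p where fewer passed, the Mrps18 paralogs, the brightest and dimmest members and the called genes of the lists, except that only examples are named of the oxidative phosphorylation and the G2 and M lists. Further genes named after their values were seen are Mrpl16, Mrpl36, Mrpl51, Mrpl42, Mrps30, Mrpl1, Mrpl21, Mrpl54 and the head-to-head neighbours. The promoter words and the head-to-head search were added after the data were seen. Same-numbered arrays of different groups had correlations of their deviations from the group means between -0.038 and 0.112. The highest, of WT array 1 with adult array 1, lay above the 0.1 set as the threshold for a block. The deviations of the 2 adult arrays mirror each other (0.112 and -0.112 with WT array 1), so the check says little about them. The labels state no pairing beyond a replicate number, and the numbers were not taken as pairs. Alternatives were a fit on the groups compared, a replicate block, other variance, normalization, centring, probe set and filter settings, array weights, other thresholds, the deposited exon table and leaving out 1 array at a time.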

Additional observations from a re-analysis of the deposited data

How the results depend on the processing

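The lower level of the members in adult cells kept its direction in all 18 alternative fits, with 52 to 68 of the members measured below 0 against WT and 55 to 68 against KO, but the number of calls did not hold. Against WT, 10 members were called, against 2 in the fit on the groups compared, 1 with medians of probe sets, 2 at an adjusted p under 0.01 and 18 under 0.1, and 4 to 11 with 1 array left out. Against KO, 21 were called, against 10 with medians of probe sets, 13 in the exon table (12 lower and Mrpl32 higher, log2 fold change 1.00) and 3 at an adjusted p under 0.01, and 6 to 21 with 1 array left out (13 without adult array 2, 15 without adult array 1). With the replicate number as a block 3 members were called against WT and 5 against KO, all among those called without it, and the block changed nothing in the 0 calls of KO against WT. Mrpl47 and Mrps18c were called against KO in all 18 alternatives. No member was called in KO against WT under any alternative, and the cause of each change named here was not tested.

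The median of the large subunit, adult minus KO, ranged from -0.89 to -0.49 with 1 array left out, with -0.89 without adult array 1. KO minus WT it was -0.02 in the exon table and ranged from -0.04 to 0.12 with 1 array left out. Quantile normalization moved the median of all genes to 0.11 for adult minus KO. Median centring gave 423 genes higher and 1443 lower over all genes in adult cells against KO, beside 621 and 1158.

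Fold changes near 0 changed sign. With 1 array left out, adult minus WT ranged from -0.11 to 0.34 for Mrpl33, from -0.79 to 0.83 for Mrpl53 and from -0.11 to 0.35 for Mrps10, adult minus KO from -0.33 to 0.44 for Mrps5 and from -0.22 to 0.23 for Mrps10, and KO minus WT from -0.04 to 0.59 for Mrps18b. In the exon table, adult minus WT was -0.02 for Mrpl33 and -0.14 for Mrps34, which was also -0.14 against KO. Centring gave Mrpl53 -0.04 against WT and, against KO, Mrps10 -0.07 and Mrps5 -0.02. Medians of probe sets gave Mrps10 -0.62 and Mrps5 -0.67 against KO, and Mrpl37 0.00 in KO minus WT. Without dim probe sets Mrps34 was -0.02 against WT and Mrps5 -0.36 against KO.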
